A study of Mus musculus with 22 samples.

Results

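The MHC class II presentation genes described here are 8 genes, H2-Aa, H2-Ab1, H2-Eb1, H2-DMa, H2-DMb1, Cd74, Ciita and Ctss, out of 78298 genes counted in the series. They were chosen by name, and all 8 were found among the Ensembl gene IDs of the count tables. Their levels were read in 22 messenger RNA libraries: 2 of female and 2 of male monocultured natural killer (NK) cells, kept 24 h with interleukin-2 (IL-2), 2 of female and 2 of male fresh NK cells, 2 with female and 2 with male NK cells co-cultured 24 h with Panc02 under IL-2, 4 allografts of Panc02 tumours from female hosts and 4 from male hosts, and 2 of cultured Panc02 cells. Panc02 is a mouse pancreatic cancer line, so all allografts and both cultured libraries share a single line, and the NK cells are primary cells from mouse spleen. The labels give no strain, age or genotype of the animals, do not say that co-cultured cells were separated before RNA was taken, and do not say that each library is its own animal. Every p-value below therefore reflects spread among libraries, which may in part be technical.

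MHC class II molecules are pairs of an alpha and a beta chain that display peptides from endocytosed proteins to CD4 T cells. The invariant chain Cd74 escorts the new pair and blocks its groove, cathepsin S (Ctss) cuts the invariant chain down to a short fragment, and H2-DM (H2-DMa with H2-DMb1) swaps that fragment for a peptide. Ciita is the coactivator that switches on the chains, Cd74 and H2-DM, acting with RFX, NF-Y and CREB proteins bound to promoter elements called the X and Y boxes. In mice, dendritic cells, B cells and macrophages are the main class II cells, Ciita is induced by interferon gamma in many other cells, and mouse NK cells usually carry little class II.

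On the GRCm39 build, the 5 H2 genes lie together on chromosome 17: H2-DMa (34338515 to 34358075), H2-DMb1 (34372046 to 34379204), H2-Ab1 (34476663 to 34488393) and H2-Eb1 (34524841 to 34535648) on the plus strand, and H2-Aa (34501718 to 34506797) on the minus strand. Ciita lies on chromosome 16 (10297923 to 10346282) and Ctss on chromosome 3 (95434097 to 95463714), each on the plus strand. RefSeq promoter windows of 250 bases before to 50 bases after the start site, on the older build GRCm38.p6, were matched for 5 members. The last 200 bases of 4 of them are printed here because 3 carry the X and Y box letters through which Ciita acts and 1, Ctss, carries the letters of an interferon response element instead. Capitals mark the X box core (CTNGNAAC) and the Y box core (GATTGG), or in Ctss the interferon response core (GAAANNGAA).
H2-Aa (chr17:34287774-34287973, minus strand): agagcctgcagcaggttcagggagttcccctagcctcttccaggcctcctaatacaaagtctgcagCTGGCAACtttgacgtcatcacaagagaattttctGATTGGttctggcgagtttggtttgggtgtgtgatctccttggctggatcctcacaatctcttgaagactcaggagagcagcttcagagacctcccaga
H2-Eb1 (chr17:34305717-34305916, plus strand): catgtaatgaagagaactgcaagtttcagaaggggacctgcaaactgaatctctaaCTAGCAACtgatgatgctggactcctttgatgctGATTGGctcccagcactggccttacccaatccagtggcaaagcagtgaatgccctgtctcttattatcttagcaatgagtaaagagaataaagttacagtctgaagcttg
H2-DMb1 (chr17:34153041-34153240, plus strand): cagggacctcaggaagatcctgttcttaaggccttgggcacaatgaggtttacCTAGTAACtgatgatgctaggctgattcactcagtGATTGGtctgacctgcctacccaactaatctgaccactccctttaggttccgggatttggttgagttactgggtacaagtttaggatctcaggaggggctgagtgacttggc
Ctss (chr3:95526636-95526835, plus strand): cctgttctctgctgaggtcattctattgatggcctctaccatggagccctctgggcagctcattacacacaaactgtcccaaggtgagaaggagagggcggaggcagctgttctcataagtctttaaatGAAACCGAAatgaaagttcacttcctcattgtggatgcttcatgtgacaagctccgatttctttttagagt

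The X core lay at positions -84 to -77 in H2-Aa, -94 to -87 in H2-Eb1 and -97 to -90 in H2-DMb1, counted from the start site, and the Y core followed after 27, 26 and 27 bases. Capitals mark matches on the strand of the gene only. H2-Eb1 holds a further Y core on the opposite strand, at -35 to -30, left in lower case above. An X core with a Y core 15 to 40 bases on, searched on both strands, was found in 38 of 32851 RefSeq promoter windows of the same length (0.116%). The X core alone was in 13.2%, the Y core alone in 16.1% and the interferon response core in 8.56% of them. Both H2-DMa windows lacked the spaced pair. A match is a description of these letters only, and the letters were chosen after the windows had been read.

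Per length (RPKM, counts per 1000 bases of exon and 1000000 counts of the library), Cd74 was the most abundant member in fresh NK cells, at 143 ± 50.8 RPKM (mean ± SD, n = 4), and in allografts, at 1838.6 ± 774.9 RPKM (n = 8). Ciita, the regulator, was the least abundant of the 8 in both, with 0.84 ± 0.135 RPKM in fresh NK cells and 5.89 ± 1.89 RPKM in allografts. In fresh cells the order ran Cd74, H2-Eb1, H2-Ab1, Ctss, H2-Aa, H2-DMa, H2-DMb1, Ciita. Among neighbours in that order, H2-Eb1 and H2-Ab1, H2-Ab1 and Ctss, Ctss and H2-Aa, and H2-DMa and H2-DMb1 overlapped in their library ranges. In monoculture Ctss came first (14.5 ± 2.55 RPKM), Cd74 second (9.85 ± 1.76 RPKM), and the other members apart from Ciita lay close together between 1.89 and 3.48 RPKM. In allografts H2-Eb1, Ctss, H2-Ab1 and H2-Aa followed Cd74 at 675.1, 538.8, 505.8 and 381.8 RPKM, with H2-Eb1 above Ctss in 6 of 8 tumours and Ctss above H2-Ab1 in 5 of 8, and H2-DMb1 and H2-DMa came next at 88.5 and 37.6 RPKM. Library totals were 13025549 to 46842646 counts.

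**Figure D1:**
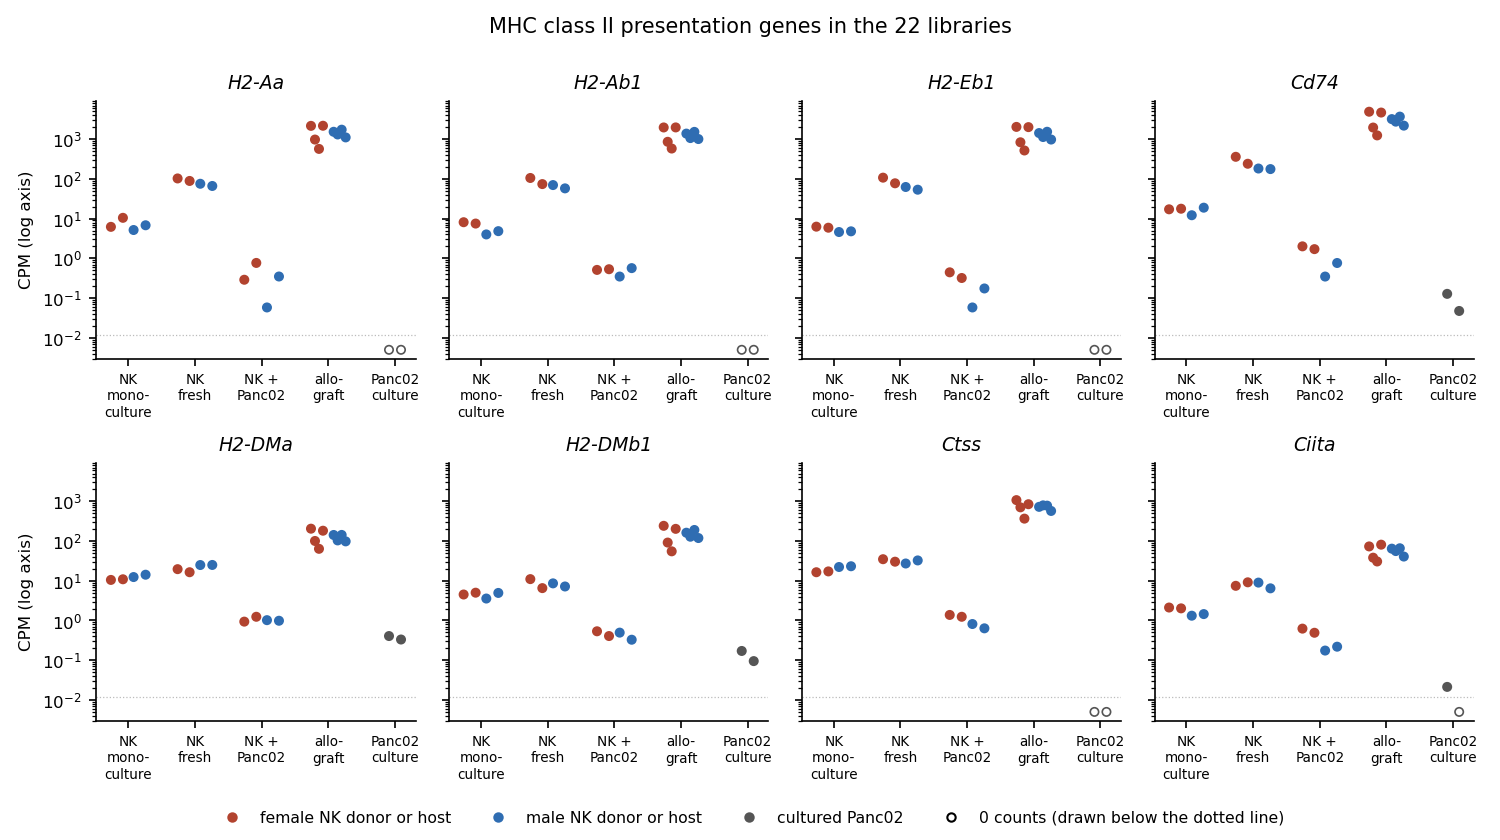
Level of each member in every library, in CPM (counts per 1000000 gene counts) on a log axis, by condition. Points are libraries, coloured by the sex of the NK donor or tumour host; open points are libraries with 0 counts, drawn below the dotted line. Allografts stand highest in every panel, and the 4 monocultures lie below the 4 fresh libraries in every panel.

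The first comparison asked how class II genes differ between NK cells after 24 h of IL-2 monoculture and fresh NK cells. All 8 members were lower in monoculture, where 21.1% of the 21414 genes tested were called lower, and they split into groups by size of change. The chains and Cd74 kept 6.88% to 8.61% of their fresh level, Ciita kept 21.6%, and H2-DMb1, H2-DMa and Ctss kept 54.1%, 56.0% and 63.3%. The median log2 fold change of the members was -2.77, beside 0.0104 over all genes tested.

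H2-Aa, the alpha chain of the A molecule, had 6.22 and 10.5 CPM in female and 5.18 and 6.82 CPM in male monocultures, against 102.9 and 89.0 CPM in female and 75.6 and 66.5 CPM in male fresh cells. H2-Ab1, its beta chain, had 8.14 and 7.53 CPM in female and 4.01 and 4.85 CPM in male monocultures, against 105.7 and 74.2 CPM in female and 70.1 and 57.9 CPM in male fresh cells. The beta chain of the E molecule, H2-Eb1, had 6.29 and 5.92 CPM in female and 4.61 and 4.80 CPM in male monocultures, against 107.7 and 77.7 CPM in female and 62.7 and 53.6 CPM in male fresh cells. Each chain was lower in every monoculture than in every fresh library, with no overlap between the groups. How many of all genes tested separated so fully was not counted, in this or in the later comparisons. The log2 fold changes were -3.41 ± 0.225 for H2-Aa, -3.59 ± 0.136 for H2-Ab1 and -3.68 ± 0.132 for H2-Eb1 (± SE; edgeR quasi-likelihood test, Benjamini-Hochberg adjusted p = 1.03e-06, 2.08e-12 and 9.06e-13). H2-Ea, the gene of the E alpha chain that pairs with the H2-Eb1 product, was at 0 in all but 1 of the 22 libraries.

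Cd74, on chromosome 18 (60936920 to 60945724, plus strand), had 17.2 and 17.8 CPM in female and 12.2 and 18.9 CPM in male monocultures, against 360.6 and 241.1 CPM in female and 182.9 and 177.0 CPM in male fresh cells. It moved with the chains, at -3.72 ± 0.193 on the log2 scale (adjusted p = 1.06e-06), and fresh female library 1 stood above the other fresh libraries. Ciita had 2.12 and 2.02 CPM in female and 1.32 and 1.45 CPM in male monocultures, against 7.46 and 9.14 CPM in female and 8.99 and 6.45 CPM in male fresh cells. That is a log2 fold change of -2.13 ± 0.228 (adjusted p = 8.44e-07), again with no overlap.

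The peptide exchange and cleavage genes fell as well, by smaller fitted amounts. H2-DMa had 10.5 and 10.9 CPM in female and 12.4 and 14.2 CPM in male monocultures, against 19.6 and 16.4 CPM in female and 24.9 and 25.0 CPM in male fresh cells (log2 fold change -0.73 ± 0.128, adjusted p = 0.000177). H2-DMb1 had 4.51 and 5.01 CPM in female and 3.57 and 4.94 CPM in male monocultures, against 11.0 and 6.53 CPM in female and 8.60 and 7.18 CPM in male fresh cells. Its change of -0.79 ± 0.219 (adjusted p = 0.00728) rested in part on fresh female library 1, without which it was -0.60 with an adjusted p of 0.0564. Ctss had 16.4 and 17.2 CPM in female and 22.2 and 23.2 CPM in male monocultures, against 34.9 and 30.2 CPM in female and 27.2 and 32.5 CPM in male fresh cells (log2 fold change -0.58 ± 0.107, adjusted p = 0.000316). The groups did not overlap for any of these 3 genes. H2-DMb1 and H2-Eb1 have near copies, H2-DMb2 and H2-Eb2, and multi-mapping reads were counted, so their exact levels are uncertain.

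Other genes of class II loading fell with the members, in 9 of the 13 tested, and 2 were higher. Marchf1, a ubiquitin ligase that removes class II from the surface, was lower by a log2 fold change of -4.35 ± 0.715 (0.107 against 1.98 CPM). The aminopeptidase cathepsin H, Ctsh, stood at 1.12 against 10.2 CPM (-3.08 ± 0.215), and Ifi30, which reduces disulphides in endosomes, at 17.7 against 43.0 CPM (-1.20 ± 0.121). H2-Oa and H2-Ob, whose products form the inhibitor of H2-DM, were lower at -2.67 ± 0.386 and -1.82 ± 0.237. The cathepsins Ctsd (0.40 ± 0.0503) and Ctsl (0.37 ± 0.131) went the other way. Of the 4 costimulators, 3 were lower, among them Cd86 at -2.06 ± 0.397 and Cd40 at -2.15 ± 0.389.

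Promoter factors and signalling genes were called in both directions. Over all 21414 genes tested, 4742 were called higher and 4513 lower in monoculture. Of 7 promoter factors 2 were called higher and 1 lower: Rfxank (0.33 ± 0.0965) and Nfyb (0.25 ± 0.0777) rose, Nfya fell (-0.60 ± 0.0542), and Rfx5 stood at 0.06 ± 0.0791. Among 11 genes from interferon gamma to Ciita, 4 rose and 4 fell. Ifng, the cytokine itself, was at 55.9 ± 7.74 CPM in monoculture and 25.8 ± 4.04 CPM in fresh cells (SD, n = 4 each; log2 fold change 1.22 ± 0.113), and Socs1, a feedback inhibitor of its receptor, at 162.7 against 26.1 CPM (2.82 ± 0.0793). Ifngr2, the signalling chain of the receptor, fell to 0.860 CPM in monoculture, against 9.85 CPM in fresh cells (-3.45 ± 0.14), while Ifngr1, the binding chain, was higher by 0.21 ± 0.0724. Spi1, a myeloid and B cell transcription factor, fell (-2.67 ± 0.320), as did Irf8 (-0.64 ± 0.0894) and Irf1 (-0.15 ± 0.0551). Of the class I presentation genes 7 of 12 were higher and 1, the chaperone Calr (-0.31 ± 0.0582), lower. The class I coactivator Nlrc5, the class I counterpart of Ciita, was higher by 0.43 ± 0.0651 and B2m, the class I light chain, by 0.63 ± 0.0469.

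**Figure D2:**
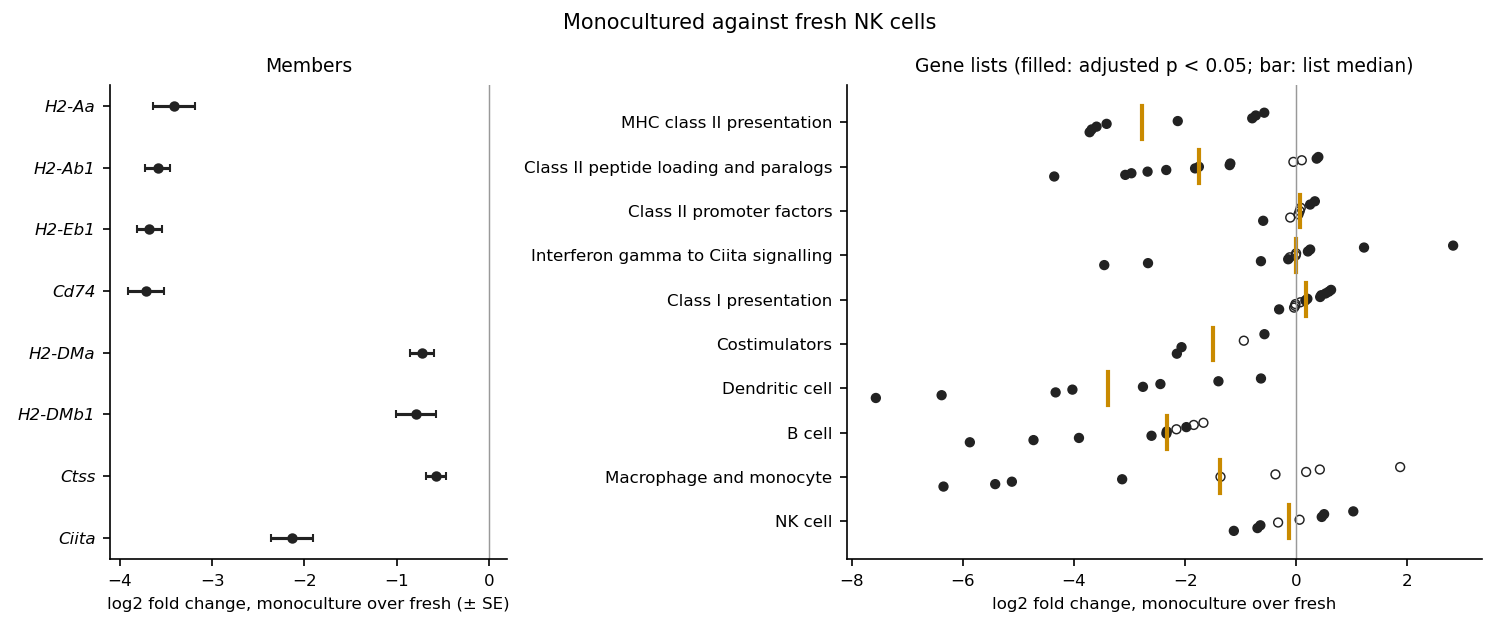
Log2 fold change of monocultured over fresh NK cells. Left, the 8 members with SE; right, every tested gene of 10 lists, filled where the adjusted p was below 0.05, with the list median as a bar. Ciita lies at -2.13 with the chains and Cd74 further down. Promoter factors lie on both sides of 0, and most class I genes lie slightly above it (list median 0.182). The medians of dendritic and B cell markers are -3.39 and -2.33.

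Markers of other class II cells moved with the members. In bulk samples, fewer cells of a type and less RNA per cell cannot be told apart. Of the dendritic cell list, 8 of 10 markers were tested and all 8 were lower (median log2 fold change -3.39). Its summed level was 275.0 to 345.8 CPM in monocultures, against 553.3 to 735.1 CPM in fresh cells, most of it Itgax, which NK cells also express. Flt3, by which dendritic cells are defined more closely, was at 0.476 to 0.941 CPM in monocultures, against 10.5 to 15.2 CPM in fresh cells. B cell markers were lower in 7 of 10, with sums of 1.63 to 6.23 CPM in monocultures, against 12.9 to 25.3 CPM in fresh cells. Macrophage and monocyte markers were lower in 4 of 9 tested, with overlapping sums of 8.75 to 49.5 CPM in monocultures and 31.8 to 85.0 CPM in fresh cells, and C1qa was at 0 in all 4 monocultures and in 2 of 4 fresh libraries. NK markers were called higher in 3 and lower in 3 of 8, with sums of 7926.6 to 9099.6 CPM in monocultures and 8258.5 to 9523.0 CPM in fresh cells. Erythroid precursor markers were lower in 4 of 5 (median -7.84), with sums of 71.2 to 145.9 CPM in monocultures, against 324.3 to 574.4 CPM in fresh cells. The part of these cells in the fall of class II was not tested. Fresh RNA was also taken with oligo(dT) beads and cultured RNA with TRIzol, and culture and extraction cannot be told apart.

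The second comparison concerned the sex of the NK donor. In fresh cells H2-Eb1 was called higher in female cells, 1 of 8 members, where 4.42% of all genes tested were called higher. The values given above put both female libraries over both male ones for H2-Aa, H2-Ab1, H2-Eb1 and Cd74, and under both for H2-DMa. The share of all genes that separated the female from the male libraries in this way was not computed. The difference of H2-Eb1 was 0.66 ± 0.159 on the log2 scale (adjusted p = 0.0150), and it was 0.37 (adjusted p = 0.320) without fresh female library 1 and 0.55 (adjusted p = 0.146) without fresh male library 5. Cd74 (0.73 ± 0.238, adjusted p = 0.104), H2-Ab1 (0.48 ± 0.165, adjusted p = 0.0763) and H2-Aa (0.42 ± 0.278, adjusted p = 0.418) were not called. H2-DMa stood at -0.48 ± 0.178 (adjusted p = 0.103). Dendritic cell markers summed to 735.1 and 649.3 CPM in female and 584.1 and 553.3 CPM in male fresh cells, the same order as H2-Eb1. Most of the sum was Itgax, at 579.7 and 511.1 CPM in female and 467.8 and 426.4 CPM in male cells. Zbtb46 did not follow that order (20.1 and 23.5 CPM in female, 23.3 and 24.0 CPM in male cells), 1 of 8 tested markers was called, and the part of dendritic cells was not tested.

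In monoculture no member was called between the sexes by edgeR (0.107% of all genes were), 2 had an unadjusted p under 0.05, and DESeq2 called 1. These were H2-Ab1, higher in female cells by 0.79 ± 0.200 (adjusted p = 0.284), and Ctss, at -0.46 ± 0.153 (adjusted p = 0.540). The 2 female libraries lay above both male ones for H2-Ab1 and below both for Ctss, without overlap. Whether the sex difference itself changed between fresh and monoculture was tested as an interaction, in which 2.55% of all genes but no member was called. By edgeR 1 member, Ctss, had an unadjusted p under 0.05 (-0.57 ± 0.215, adjusted p = 0.176), and DESeq2 called 0. Over all genes, 215 interactions were positive and 331 negative with TMM scaling, against 417 and 265 with median-ratio scaling.

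The third comparison asked what co-culture adds to Panc02. All members stood very low in co-culture, from 0.0582 to 2.01 CPM in any library, in libraries that held mostly Panc02 RNA. In cultured Panc02, H2-Aa, H2-Ab1, H2-Eb1 and Ctss had 0 counts in both libraries, which allows up to 0.0674 CPM over both libraries (3 read pairs, or 6 counts, since both mates were counted; counting error only). Ciita had 1 count in 1 of the libraries, Cd74 had 6 and 2 counts, H2-DMb1 had 8 and 4, and H2-DMa had 19 and 14. Against this, 7 of 8 members were called higher in co-culture, where 12.2% of 18172 genes were. H2-DMb1, the exception, stood at 1.74 ± 0.680 (adjusted p = 0.0847). Without Panc02 library 1 the number called was 4, and without library 2 it was 3.

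Cd74 had 2.01 and 1.71 CPM with female and 0.349 and 0.766 CPM with male NK cells in co-culture, against 0.128 and 0.0475 CPM in Panc02, a ratio of pooled counts of 14.1 (95% counting interval on halved counts 5.33 to 52.5). Ciita had 0.624 and 0.491 CPM with female and 0.175 and 0.219 CPM with male NK cells, against 0.0213 and 0 CPM in Panc02 (ratio 34.7, with a lower end of the interval of 3.49, on 1 Panc02 count). Both genes were higher in all 4 co-cultures, and both were higher with female than with male NK cells. Ctss had 1.38 and 1.24 CPM with female and 0.815 and 0.635 CPM with male NK cells in co-culture, at least 15.3-fold higher than Panc02. H2-Aa (0.290 and 0.769 CPM with female, 0.0582 and 0.350 CPM with male NK cells) was at least 5.79-fold, H2-Ab1 (0.513 and 0.534, 0.349 and 0.569 CPM) at least 7.43-fold and H2-Eb1 (0.446 and 0.321, 0.0582 and 0.175 CPM) at least 3.89-fold higher, each with the floor of 3 read pairs taken over both Panc02 libraries. H2-DMa (0.936 and 1.24, 1.02 and 0.985 CPM) was 2.83 times Panc02 (interval 1.66 to 5.11).

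Since NK and Panc02 RNA are mixed in these libraries, the levels were set beside those of a mixture. The NK share of RNA was taken as the median ratio of 361 genes of at least 20 CPM in monocultured NK cells and nearly absent from Panc02. It was 2.81% and 3.42% with female and 2.05% and 1.76% with male NK cells. The mixture level of a gene is that share of its monoculture level plus the rest of its Panc02 level. The median ratio of observed to mixture level over the 8 members was 2.46 and 2.08 with female and 1.68 and 2.12 with male NK cells. The observed counting interval lay wholly above the mixture for 6 and 6 members with female and for 2 and 5 with male NK cells. These intervals cover counting error of the co-culture library only, on counts halved because both mates of a pair were counted. They take the NK share, the monoculture level and the Panc02 level as exact. The share of all genes above the mixture was not computed, so these counts have none beside them.

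Ciita stood furthest above the mixture among the members in 3 of 4 libraries (H2-Ab1 did in the other), at 9.11 and 6.06 times with female and 4.50 and 6.26 times with male NK cells, though on 6 to 28 counts. In the library with male NK cells 4 its counting interval, 0.036 to 0.51 CPM, included the mixture level of 0.0388 CPM. Cd74 was at 3.47 and 2.50 times with female and at 0.864 and 2.12 times with male NK cells. The chains varied from 0.474 to 7.28 times the mixture, H2-DMa from 1.42 to 1.72 and Ctss from 1.58 to 2.93 times. Irf1, which binds the Ciita promoter and was measured far more deeply, had 185.1 and 161.5 CPM with female and 102.1 and 95.6 CPM with male NK cells, against 22.7 and 21.4 CPM in Panc02, and was 3.76 to 6.76 times the mixture. Nlrc5 was 2.45 to 4.94 times the mixture. Of the class I list, 12 of 12 genes were called higher than in Panc02, and 10 to 12 per library had counting intervals above the mixture, whereas 1 of 8 tested class II loading genes, Cd63, was called higher. Which of the cells carried any RNA above the mixture level cannot be told apart.

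**Figure D3:**
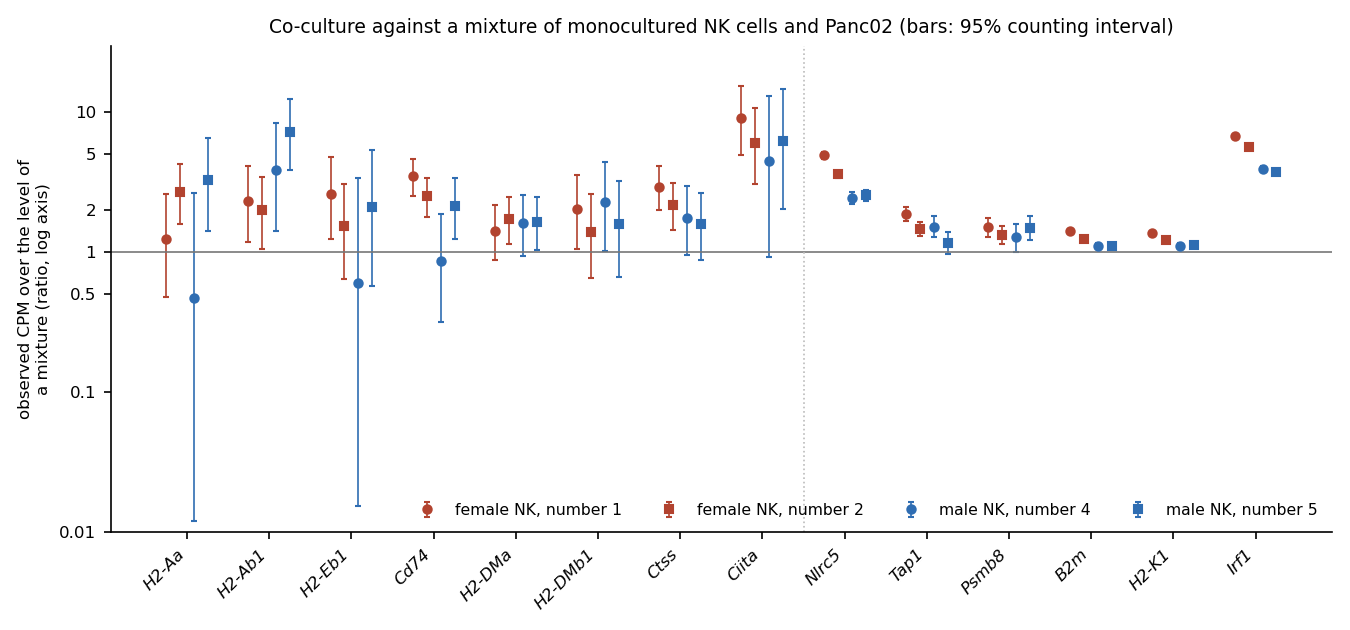
Observed level in each co-culture library over the level of a mixture of monocultured NK cells and Panc02 (log axis), for the members (left of the dotted line) and for 5 class I genes and Irf1. Bars are 95% counting intervals of the co-culture library. The ratio of Ciita lies above 1 in all 4 libraries, with an interval that reaches below 1 in male NK number 4, the chains scatter around and above 1 with wide intervals, and in each library Irf1 lies above the 5 class I genes drawn.

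Between co-cultures with female and with male NK cells no member was called by edgeR (1.31% of all genes were), although 4 of 8 had an unadjusted p under 0.05 and DESeq2 called 1, Cd74. Their differences were 1.64 ± 0.545 for Cd74 (adjusted p = 0.522), 1.57 ± 0.520 for H2-Eb1 (adjusted p = 0.309), 1.44 ± 0.437 for Ciita (adjusted p = 0.209) and 0.85 ± 0.239 for Ctss (adjusted p = 0.143). Each of these 4 genes was higher in both libraries with female cells than in both with male cells. The NK share was higher with female cells too, at 3.11 ± 0.433% with female and 1.91 ± 0.199% with male cells (SD, n = 2 each), and its part was not tested. Called higher with female cells were 11 of 12 class I genes, with Nlrc5 at 1.13 ± 0.0983 (adjusted p = 1.26e-05), and 5 of 11 signalling genes, among them Irf1 at 0.79 ± 0.0786 (adjusted p = 4.04e-05) and Ifng at 0.93 ± 0.206 (adjusted p = 0.0311). The median difference was 1.03 over the members and 0.663 over the class I list, beside 0.676 over 4 leukocyte markers, all 4 called, and 0.633 over 8 NK markers, of which 3 were called.

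The fourth comparison set Panc02 grown as a tumour in a mouse against the cultured line. All 8 members were higher in allografts, where 38.8% of 23264 genes were called higher, with a median log2 fold change of 16.4 beside 0.419 over all genes tested. The fitted values of the 4 genes with 0 counts in Panc02 depend on the prior count. Pooled over libraries, H2-Aa was at least 21900-fold, H2-Eb1 at least 19700-fold, H2-Ab1 at least 19500-fold and Ctss at least 11000-fold higher, each against the floor of 3 read pairs over both Panc02 libraries. With these genes at their bound, the median log2 ratio of pooled counts over the members was 13.8. Cd74 was 34900 times higher (interval 13600 to 128000), H2-DMb1 1120 times (514 to 3050) and H2-DMa 353 times (219 to 611). Ciita was 5060 times higher on 1 Panc02 count (lower end of the interval 541).

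Together the members took 0.344% to 1.27% of all counts of an allograft. Cd74 ranked between 5 and 80 among all genes by counts in single tumours, and Ciita between 2515 and 6464. In female hosts 1 to 4, Cd74 was at 4918.7, 1965.9, 1247.3 and 4688.4 CPM, and in male hosts 5 to 8 at 3206.8, 2769.1, 3703.3 and 2196.8 CPM. H2-Ab1 was at 1976.0, 860.7, 582.8 and 1980.3 CPM in female and at 1383.8, 1068.5, 1529.8 and 1009.7 CPM in male hosts. Female allografts 1 and 4 were the highest and female allograft 3 the lowest for both, with the 4 male tumours between.

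H2-Aa ranged from 569.9 to 2181.5 CPM with a median of 1427.2 CPM, H2-Eb1 from 520.5 to 2041.5 CPM (median 1282.0), and Ctss from 366.4 to 1071.7 CPM (median 751.6). H2-DMa ranged from 63.7 to 204.7 CPM (median 122.9), H2-DMb1 from 55.1 to 241.6 CPM (median 145.2) and Ciita from 30.6 to 81.0 CPM (median 60.1). Female allograft 3 was the lowest of 8 for all 8 members, and the highest was female allograft 1 or 4 for each. The highest tumour had 2.64 (Ciita) to 4.38 (H2-DMb1) times the level of the lowest. Relative to H2-Ab1 the members varied much less: the SD of the log2 ratio over tumours was 0.0779 for H2-Eb1, 0.0919 for H2-Aa and 0.0936 for Cd74, against an SD of 0.611 for the log2 level of H2-Ab1 itself, and it was 0.305 for Ctss.

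Cells of the host were part of these tumours. Macrophage markers were all called higher than in Panc02 (13 of 13), with sums of 4260.4 to 8651.4 CPM in allografts, against 75.7 to 78.8 CPM in Panc02, and C1qa at 605.2 to 1164.7 CPM was at 0 in culture. Dendritic cell markers were called in 10 of 10 (193.7 to 264.7 CPM, against 8.97 to 10.0 CPM in Panc02). B cell markers were called higher in 4 of 9 tested, where 38.8% of all genes were (17.3 to 354.9 CPM, against 0.166 to 0.171 CPM in Panc02). Markers of the cultured line summed to 636.6 to 1588.0 CPM in allografts, against 2951.3 to 2981.4 CPM in Panc02. Whether host cells or tumour cells held the class II RNA cannot be told apart in these bulk libraries.

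Most genes of the loading, class I and signalling lists moved with the members, while the promoter factors went both ways (median log2 fold change 0.049, beside 0.419 over all genes). Of 13 class II loading genes tested 12 rose, among them Lgmn, a cysteine protease of endosomes (575.0 ± 79.8 against 27.3 ± 3.08 CPM, SD, n = 8 and 2), and Ctsh (210.3 ± 37.1 against 4.44 ± 0.365 CPM). Of 12 class I genes 11 rose, with Nlrc5 at 65.2 ± 21.9 CPM in allografts and 4.12 ± 0.152 CPM in Panc02 and a log2 fold change of 4.05 ± 0.504. Among the 11 signalling genes 10 rose, with Irf1 at 3.24 ± 0.434, Ifngr1 at 2.16 ± 0.272 and Ifngr2 at 1.10 ± 0.139, and Jak2 fell (-1.56 ± 0.294). Ifng was at 0.0765 to 2.64 CPM in allografts and at 0 in Panc02. Of the promoter factors 2 rose, Rfx5 (0.65 ± 0.24) and Rfxank (0.79 ± 0.14), and 3 fell, Nfyb (-1.32 ± 0.157), Nfyc (-0.45 ± 0.115) and Creb1 (-0.87 ± 0.179). Over all 23264 genes tested, 9015 were called higher and 5432 lower in allografts. Costimulators were higher in 3 of 4, with Cd86 at 23.5 ± 5.16 CPM in allografts and 0 in Panc02.

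**Figure D4:**
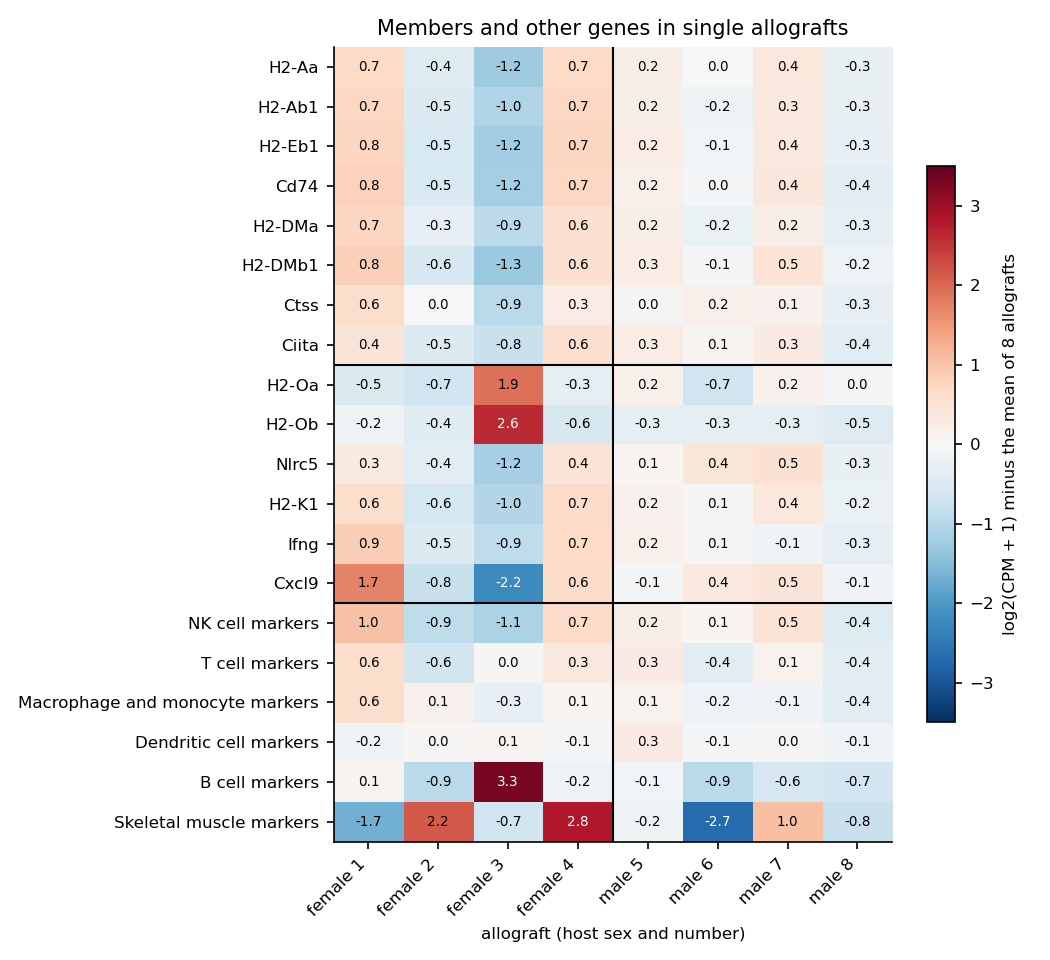
Each row shows log2(CPM + 1) in the 8 allografts minus the mean of the 8, for the members (top), for other presentation and interferon genes (middle) and for summed cell type markers (bottom). The members, H2-K1, Ifng and Cxcl9 are high in female allografts 1 and 4 and low in female allograft 3, whereas H2-Oa, H2-Ob and B cell markers are highest in female allograft 3.

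How the members varied between tumours was described by their relation to H2-Ab1 across the 8 allografts, on log2(CPM + 1). Of 14 relations computed, 10 had a Benjamini-Hochberg adjusted p below 0.05 for Pearson's r and 11, with T cell markers, for Spearman's rho in two-sided exact permutation tests over 40320 orders, the smallest possible p being 2.48e-05. Pearson's r was 0.997 for H2-Eb1, 0.994 for Cd74, 0.991 for H2-Aa, 0.985 for H2-DMa and H2-DMb1 and 0.967 for Ciita, with Spearman's rho of 0.952 to 1. Their exact permutation p-values were 2.48e-05 to 0.000248 for r and 4.96e-05 to 0.00114 for rho, with adjusted values of 0.000139 to 0.000496 and 0.000347 to 0.002. Without the 2 tumours farthest from the median of each measure, r stayed between 0.913 and 0.995. Ctss had r of 0.876 and rho of 0.881 (exact permutation p = 0.00248 and 0.00724, adjusted 0.00347 and 0.0101), and with r of 0.63 without female allografts 1 and 3, so that this relation rests on those tumours.

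Ifng, at a median level far below the members, followed H2-Ab1 with r of 0.934 and rho of 0.905 (exact permutation p = 0.000992 and 0.00456, adjusted 0.00154 and 0.0071; r of 0.858 without female allografts 1 and 3). Cxcl9, a chemokine induced by interferon gamma, did so with r of 0.918 and rho of 0.952 (exact permutation p = 0.00062 and 0.00114, adjusted 0.00109 and 0.002; r of 0.813 without the same tumours). Summed NK markers, at only 8.91 to 43.1 CPM, gave r of 0.964 and rho of 0.976 (exact permutation p = 9.92e-05 and 0.000397, adjusted 0.000231 and 0.000926; r of 0.938 without female allografts 2 and 3). Most of that sum was Klrk1 (3.06 to 20.6 CPM) and Prf1 (2.61 to 12.3 CPM), which CD8 T cells also express. Eomes ranged from 1.29 to 3.13 CPM and was highest in male allograft 5, but cultured Panc02 itself had 17.7 and 19.7 CPM of it. Ncr1 (0.153 to 2.25 CPM) and Klre1 (0.0765 to 2.2 CPM) were lowest in female allograft 3 and highest in female allograft 4. Klrb1c (0.153 to 2.58 CPM) was lowest in male allograft 8. Ifng, Cxcl9 and the NK sum were each lowest in female allograft 3 and highest in female allograft 1.

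The same relation was computed for summed markers of 4 other cell types. Macrophage markers gave r of 0.617 and rho of 0.452 (exact permutation p = 0.0996 and 0.267, adjusted 0.116 and 0.312), and dendritic cell markers r of -0.204 and rho of -0.286 (exact permutation p = 0.638 and 0.501, adjusted 0.638 and 0.539). Fscn1 was the largest part of the dendritic sum, at 78.0 to 157.4 CPM, lowest in female allograft 1 and highest in female allograft 3. Itgax, at 25.6 to 75.2 CPM, was lowest in female allograft 3. So were Xcr1 (0.918 to 6.81 CPM) and Clec9a (0.574 to 3.77 CPM), both highest in female allograft 1. In contrast, Zbtb46 was lowest in female allograft 1 (6.89 CPM) and Siglech highest in female allograft 3 (2.6 CPM). Flt3, Ccr7, Cd209a and Batf3 were lowest in a male tumour. The relation of single dendritic cell markers to H2-Ab1 was not tested. T cell markers gave r of 0.665 and rho of 0.786 (exact permutation p = 0.0737 and 0.0279, adjusted 0.0938 and 0.0355), and r of 0.954 (adjusted p = 0.00694) without female allograft 3. B cell markers gave r of -0.499 and rho of 0.143 (exact permutation p = 0.214 and 0.752, adjusted 0.23 and 0.752). Without female allograft 3 the relation of B cell markers to H2-Ab1 turned to r of 0.852 (adjusted p = 0.0326), so its direction rests on that tumour. Differences between these correlations were not tested, and all rest on the same 8 libraries.

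**Figure D5:**
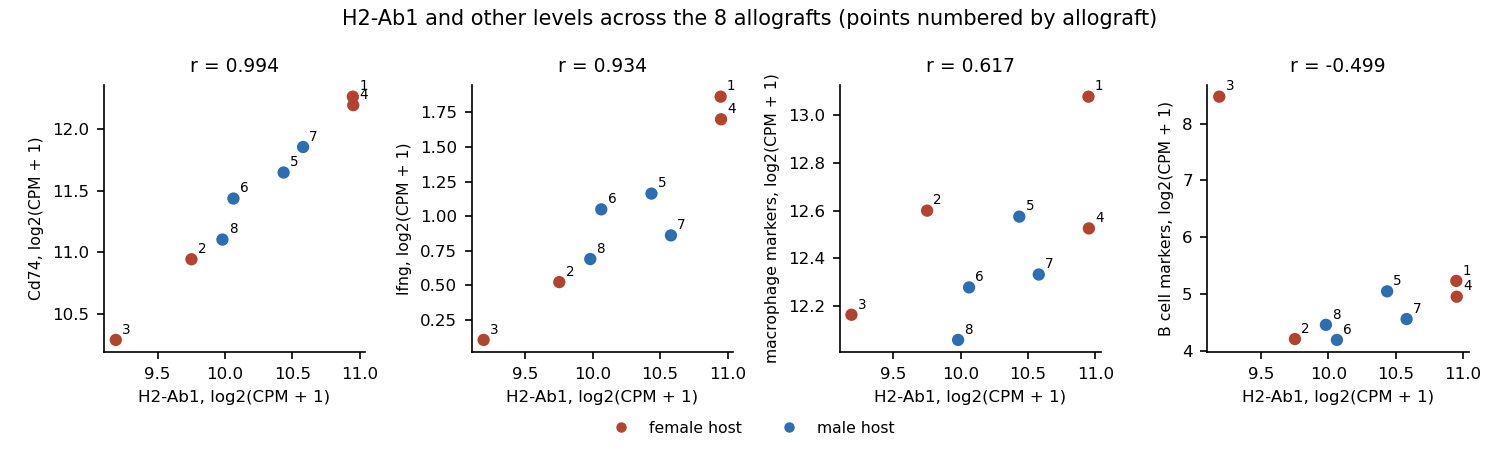
H2-Ab1 against Cd74, Ifng, summed macrophage markers and summed B cell markers across the 8 allografts, each as log2(CPM + 1), with Pearson's r above each panel. Points are tumours, numbered by allograft and coloured by host sex. Cd74 and Ifng rise with H2-Ab1 (r of 0.994 and 0.934), and female allograft 3, lowest for H2-Ab1, stands apart with high B cell markers.

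Female allograft 3 combined the lowest class II levels with the highest levels of the H2-DM inhibitor. H2-Ob was at 40.4 CPM and H2-Oa at 16.3 CPM in that tumour, against 3.61 to 5.04 and 1.80 to 2.63 CPM in the other female tumours. Its B cell markers summed to 354.9 CPM, against 17.3 to 36.6 CPM in the other 7 allografts, and their part was not tested. H2-DMb2, a near copy of H2-DMb1, was at 45.1 CPM in the same tumour and at 45.2 CPM in female allograft 1, so it did not follow H2-DMb1 (55.1 and 241.6 CPM).

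By host sex no member differed by edgeR, with 0 at an unadjusted p under 0.05 and 0 by DESeq2, in a comparison that called 3 of 20560 genes (0.0146%). The log2 differences, female over male hosts, lay between 0.03 ± 0.326 for Ciita and 0.23 ± 0.352 for H2-DMa. H2-Ab1 averaged 1349.9 ± 734.2 CPM in female and 1247.9 ± 249.6 CPM in male hosts (SD, n = 4 each). Female tumours spanned the whole range of the 8.

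The genes most like the class II members were sought by their correlation with the mean log2(CPM + 1) of H2-Aa, H2-Ab1, H2-Eb1 and Cd74. Over all 22 libraries, which span 5 conditions, and 12246 genes, Themis2 (r of 0.995), Fabp5 (0.992), Csf2rb (0.991), Mpeg1 (0.989), Csf2rb2 (0.989), Cd40 (0.989), Pros1 (0.989) and Slfn5 (0.988) came first. Over the 8 allografts and 12379 genes the nearest were H2-D1 (0.993), H2-K1 (0.989), Tapbp (0.985), Tap1 (0.979), Slamf7 (0.976), Zbp1 (0.975), Izumo4 (0.975) and H2-Q4 (0.974). Of these, H2-D1, H2-K1 and H2-Q4 encode class I chains and Tapbp and Tap1 load class I peptides, so 5 of the 8 nearest genes belong to class I. Nlrc5 ranked 118 (r of 0.894), C1qa 666 (0.677) and Adgre1, a macrophage marker, 2874 (0.287).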

How the data were processed

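For 22 messenger RNA libraries in 9 groups, the authors deposited whole-number counts of reads for each gene. The submitters' processing notes name cutadapt 4.4, SAMtools 1.19.2, HISAT2 2.2.1 and the build GRCm39, with no role given. featureCounts 2.0.6 counted exons of Ensembl release 113 on the reverse strand (setting 2), with each mate counted singly and multi-mapping reads kept, per the file headers. Counting intervals and floors were for this reason taken on halved counts, and near copies share reads. Per the labels' protocols, polyadenylated RNA was enriched from 100 ng (monocultures, co-cultures and cultured Panc02) or 500 ng (allografts), with RNA integrity numbers of 8.5 to 10. No input amount was given for fresh NK cells.

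CPM were computed over the total gene counts of a library (13025549 to 46842646) and used within a gene, and RPKM over exon length were used between genes. Tests used edgeR 4.0.16 (robust quasi-likelihood fits, genes kept by filterByExpr, TMM scaling; R 4.3.3) and Benjamini-Hochberg adjustment over all genes of a fit at 0.05; an SE was obtained as the log2 fold change over the root of F. The 12 libraries of NK cells and co-cultures were fitted together, as a fit of 6 group means (6 residual degrees of freedom), co-cultures were fitted with Panc02 (3), allografts with Panc02 (7) and allografts alone for host sex (6). DESeq2 1.42.0 and limma 3.58.1 served as alternatives, with median-ratio scaling, no filter, halved counts, left-out libraries, fewer groups and the sample number as a block. Scripts were tested on simulated data. Permutation tests and mixture levels used Python 3.11.15 and scipy 1.17.1.

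The members and gene lists were chosen with earlier results of these data known, as were the X and Y box letters. Named beyond the members are up to 4 called genes a list by smallest p with any going the other way, a set of upstream genes, and the 8 most alike genes; other named genes were chosen after their values were seen. Some genes that this rule names are not reported here. All 136 list genes were found, 3 through an older symbol. H2-Ab1 and Ciita had no promoter window and Cd74 sequence was not used here.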

Additional observations from a re-analysis of the deposited data

Results flagged for a closer look

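In groups of 4 allografts, 68 sets of values were screened for a tumour far from the other 3, of which chance alone flags about 1 in 20, and 6 were found. In female hosts, allograft 3 stood apart for H2-Ob (40.4 CPM, against 3.61 to 5.04 CPM in the other 3), H2-Oa (16.3 CPM, against 1.80 to 2.63 CPM) and H2-Eb2 (5.32 CPM, against 0.926 to 1.39 CPM). The same tumour stood apart for summed B cell markers (354.9 CPM, against 17.5 to 36.6 CPM), and none of the 8 members was among the 6. Erythroid precursor markers stood apart in female allograft 2 (91.7 CPM, against 36.0 to 39.3 CPM) and in male allograft 7 (300.3 CPM, against 23.6 to 26.7 CPM). Neither was the highest or lowest of the 8 tumours for a member. Among the male hosts alone, allograft 7 was the highest for every member except Ctss, with Cd74 at 3703.3 CPM. The part of these cells in the class II levels was not tested.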

How the results depend on the processing

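Among counts of members called and other summary values, 256 stayed within 1.5 times of the reported value under an alternative, 9 were higher and 4 lower. Members were counted in both directions in every comparison. The 256 therefore include directions with 0 members called in both fits, where little could change. Among values of single members and relations 1116 kept their side of the threshold, with 12 newly past the threshold, 11 no longer past it and 1 reversed. In fresh NK cells, members called higher in female cells numbered 1, against 2 when the groups compared were fitted alone and 0 to 3 when a library was left out, and members called lower numbered 0, against 1 by DESeq2, with halved counts and without a filter, and 0 to 1 when a library was left out. In monoculture DESeq2 and the fit without a filter called 1 member higher in female cells (H2-Ab1) where edgeR called 0. In co-culture DESeq2 called 1 member (Cd74) higher with female NK cells. Leaving out a library gave 3 to 7 members higher in co-culture than in Panc02, and 7 to 8 lower in monoculture than in fresh cells. With halved counts H2-Aa and H2-Eb1 did not pass the filter in that co-culture fit. The relation of B cell markers to H2-Ab1 ranged from r of -0.642 to 0.852 when a tumour was left out, and reversed to 0.852 without female allograft 3. In each case the cause was not tested. Between monoculture and fresh cells, same-numbered deviations from the group mean correlated at 0.0109 for numbers 1 and 2 and at 0.0744 for 4 and 5. With 2 libraries in a group these deviations mirror each other, so each sex gives 1 value. Such values cannot exclude that same-numbered NK libraries are paired, and the main fit was unpaired. With the number as a replicate block 8 members were lower in monoculture (Cd74 at -3.7, H2-DMb1 at -0.76), and the interaction with sex called 0. Leaving out the muscle-rich allografts (female 2 and 4, male 7), an alternative chosen after seeing the data, left 8 members higher than in Panc02 and 0 differing by host sex. Single members rested on 2 to 90 counts in a co-culture library and on 0 to 19 in a Panc02 library, which bounds the folds between them.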
